A study of Mus musculus with 2 samples.

Results

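The genes described here are those of the mouse major histocompatibility complex, the H2 locus, in T cells taken from EMT6 tumours. They were chosen by symbol, as every gene in the deposited feature lists whose symbol starts with H2-, which gave 34 of 32285 genes. Of these, 24 encode class I heavy chains or class I-like proteins, 9 encode class II chains or their loading proteins, and H2-Ke6, an enzyme gene that lies among them, belongs to neither class. All 34 lie on chromosome 17 in GENCODE M21 on GRCm38, between positions 33996017 and 37483552, and all are annotated as protein coding.

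Class I proteins stand on nearly all nucleated cells, pair with beta-2 microglobulin (B2m) and show peptides from inside the cell to CD8 T cells. Class II proteins are made mainly by macrophages, dendritic cells and B cells and show peptides to CD4 T cells, with the invariant chain (Cd74), H2-DM and H2-O acting in their loading. Interferons raise class I transcription, for which Nlrc5 is a main activator in lymphocytes, while class II transcription depends on Ciita. Mouse T cells are known for high class I and, unlike human T cells, for little or no class II of their own.

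Cells came from BALB/c mice aged 4 to 6 weeks that carried subcutaneous EMT6 tumours, a transplantable mammary carcinoma line of the same strain, and that were randomised at a tumour volume of 80 to 150 mm3. The treated group received mSTAR1302 by intraperitoneal injection for 2 cycles at 1 dose a week, and the control group received vehicle. mSTAR1302 is an antibody to the T cell receptor chains Vβ13-2 and Vβ13-3 of the mouse joined to interleukin-2. CD4 and CD8 cells were enriched with magnetic beads before droplet sequencing of the 3′ ends of transcripts, with 1 library for each group, and the labels do not say how many mice a library holds. No test between the groups is therefore possible. Every interval below is an exact 95% interval for counting error only, and it leaves out the spread between animals and libraries.

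The mSTAR1302 library kept 9155 cells and the vehicle library 7615, with medians of 6260 and 8448 transcript molecules counted by their unique identifiers (UMIs) in a cell, and 17 barcodes occurred in both. T cells were barcodes with at least 2 UMIs of Cd3d, Cd3e and Cd3g together, and numbered 8718 and 6729. The CD8 gate (Cd8a or Cd8b1 and no Cd4) held 6290 and 2460 cells, Foxp3-negative CD4 cells (Cd4, no Cd8 and no Foxp3 UMI) numbered 791 and 622, and Foxp3-positive CD4 cells, with a UMI of this marker of regulatory T cells, 146 and 1365 (CD4 without and with Foxp3 in the plots). Other cells had no Cd3 UMI: 14 and 47 were macrophages by their C1q genes, 12 and 120 plasmacytoid dendritic cells by Siglech, and 0 and 7 conventional dendritic cells. Free RNA, the transcripts outside cells, was read from 66300 and 68335 barcodes of 50 to 400 UMIs. Levels are a gene's share of the UMIs of the gate times 1000000 (CPM); because 3′ libraries count an end of each molecule, they are not divided by gene length.

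Of the 34 members, 15 reached 20 CPM in at least 1 library of at least 1 T cell gate. They were the class I genes H2-K1, H2-D1, H2-Q4, H2-Q6, H2-Q7, H2-Q10, H2-T22, H2-T23 and H2-M3, the class II genes H2-Aa, H2-Ab1, H2-Eb1, H2-DMa and H2-Oa, and H2-Ke6. A further 10 were detected below that level, the highest of them H2-DMb1 at 11.8 CPM in vehicle Foxp3-negative CD4 cells. The remaining 9 (H2-Eb2, H2-M1, H2-M11 and the H2-M10 genes) had no UMI in any T cell gate, where a count of 0 allows up to 0.0615 CPM in mSTAR1302 CD8 cells and up to 2.41 CPM in the smallest gate, mSTAR1302 Foxp3-positive CD4 cells.

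The promoters of 6 members are shown because they carry the contrasts in level described next: H2-K1 and H2-D1, the abundant classical genes, H2-Q7, H2-Q10 and H2-T23, which differed from them between the libraries, and H2-Aa as a class II gene. Each is the 250 bases before the start of the gene in RefSeq on GRCm38.p6, written 5′ to 3′ on the gene's strand. H2-K1 lies at chr17:34000348-34000597 on the minus strand, H2-D1 at chr17:35262844-35263093 on the plus strand, H2-Q7 at chr17:35438905-35439154 on the plus strand, H2-Q10 at chr17:35469839-35470088 on the plus strand, H2-T23 at chr17:36032702-36032951 on the minus strand and H2-Aa at chr17:34287824-34288073 on the minus strand. Capitals mark exact matches, on either strand, to letters chosen after the promoters were seen. GGGGATTCCCC (a kappa B type sequence) and AGTTTCACTT (an interferon-response type sequence) were read from the H2-K1 promoter itself, so their match there is given by the choice. The others are TGACGCG and TGACGTCA (cyclic AMP-response type sequences) and CCAAT, the letters bound by NF-Y.
H2-K1: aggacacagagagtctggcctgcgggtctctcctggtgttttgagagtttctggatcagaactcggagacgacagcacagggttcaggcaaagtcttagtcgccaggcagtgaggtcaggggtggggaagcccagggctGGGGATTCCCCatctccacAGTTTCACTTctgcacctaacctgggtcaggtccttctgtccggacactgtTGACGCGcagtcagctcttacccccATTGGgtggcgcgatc
H2-D1: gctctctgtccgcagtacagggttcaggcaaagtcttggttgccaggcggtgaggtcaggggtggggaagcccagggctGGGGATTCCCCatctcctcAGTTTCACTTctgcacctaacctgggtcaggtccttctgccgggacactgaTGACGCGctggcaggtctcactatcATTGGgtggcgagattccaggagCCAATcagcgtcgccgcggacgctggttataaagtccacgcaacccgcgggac
H2-Q7: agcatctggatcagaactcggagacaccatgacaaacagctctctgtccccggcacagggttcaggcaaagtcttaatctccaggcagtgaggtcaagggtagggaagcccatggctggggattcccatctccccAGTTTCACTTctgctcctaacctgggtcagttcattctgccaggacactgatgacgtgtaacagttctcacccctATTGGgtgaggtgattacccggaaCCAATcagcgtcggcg
H2-Q10: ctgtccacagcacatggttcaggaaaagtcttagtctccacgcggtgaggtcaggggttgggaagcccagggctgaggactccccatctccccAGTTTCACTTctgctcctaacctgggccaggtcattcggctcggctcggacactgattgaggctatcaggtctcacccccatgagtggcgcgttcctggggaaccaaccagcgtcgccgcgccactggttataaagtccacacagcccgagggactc
H2-T23: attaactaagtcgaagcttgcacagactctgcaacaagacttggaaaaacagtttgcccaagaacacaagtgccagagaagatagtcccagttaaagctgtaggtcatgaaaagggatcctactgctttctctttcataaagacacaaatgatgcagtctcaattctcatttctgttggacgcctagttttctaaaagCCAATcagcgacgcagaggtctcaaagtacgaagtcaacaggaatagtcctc
H2-Aa: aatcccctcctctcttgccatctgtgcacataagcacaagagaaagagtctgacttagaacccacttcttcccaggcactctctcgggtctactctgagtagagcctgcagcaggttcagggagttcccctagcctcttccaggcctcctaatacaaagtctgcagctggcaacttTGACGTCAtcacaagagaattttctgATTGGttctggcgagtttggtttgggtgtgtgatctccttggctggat

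GGGGATTCCCC was found in 0.0222% of the first listed promoters of 27025 genes and in 3 of the 31 members with an entry, which were H2-K1, H2-D1 and H2-Q6. AGTTTCACTT stood in 0.148% of all promoters and in 8 of the 31 members, TGACGCG in 1.54% and in 2 members (H2-K1 and H2-D1), TGACGTCA in 1.62% and in H2-Aa alone of the members, and CCAAT in 34.5% and in 27 members. Around the shared AGTTTCACTT, 69 of 70 bases were the same in H2-K1 and H2-D1, and 64 of 70 in H2-K1 and H2-Q10. At the place of GGGGATTCCCC, counted from 1 at its 5′ end and read without gaps, H2-Q10 differed from H2-K1 by G2A and T6C, and H2-Q4 by C8T. These are matches of letters in the reference strain, and binding was not measured.

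Class I made up 0.819% to 1.26% of the UMIs of the T cell gates. Of the class I genes, H2-D1 and H2-K1, which encode the classical chains that show peptides to CD8 cells, were highest in every gate. H2-D1 stood at 3636 CPM in the mSTAR1302 library and 4491 in the vehicle library in CD8 cells, at 4122 and 5292 in Foxp3-negative CD4 cells, and at 5028 and 6312 in Foxp3-positive CD4 cells. H2-K1 stood at 2663 and 3116 in CD8 cells, at 2960 and 3089 in Foxp3-negative CD4 cells, and at 3131 and 3806 in Foxp3-positive CD4 cells. Summed over all depths, both genes were lower in the mSTAR1302 library in each gate, and the intervals of the libraries did not overlap. H2-K1 did not keep that direction in Foxp3-negative CD4 cells of 10000 to 20000 UMIs. There it was higher with mSTAR1302, at 3131 CPM (3037 to 3227) and 2764 (2657 to 2875). It was lower in the shallower ranges of that gate, with overlapping intervals at 6000 to 10000 UMIs (2842 and 2910 CPM).

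H2-Q7, which encodes Qa-2, came next, at 608 and 519 CPM in CD8 cells, 553 and 538 in Foxp3-negative CD4 cells and 639 and 720 in Foxp3-positive CD4 cells. H2-T23, which encodes Qa-1, the ligand of the inhibitory receptor pair Cd94 and Nkg2a, was at 348 and 483, at 360 and 509.9 and at 424 and 658 in the same order. H2-Q6, a close relative of H2-Q7, lay between 243 and 287 CPM over the 6 gate values, and H2-Q4 between 238 and 288. H2-T22, whose product is a ligand of some gamma delta T cells, lay between 202 and 353 CPM, H2-Q10, which encodes a secreted chain best known from liver, between 73.6 and 119, and H2-M3, which presents peptides that start with formylmethionine, between 54.4 and 78.9. The class I genes thus spanned a wide range, with the classical pair far above the others.

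**Figure D1:**
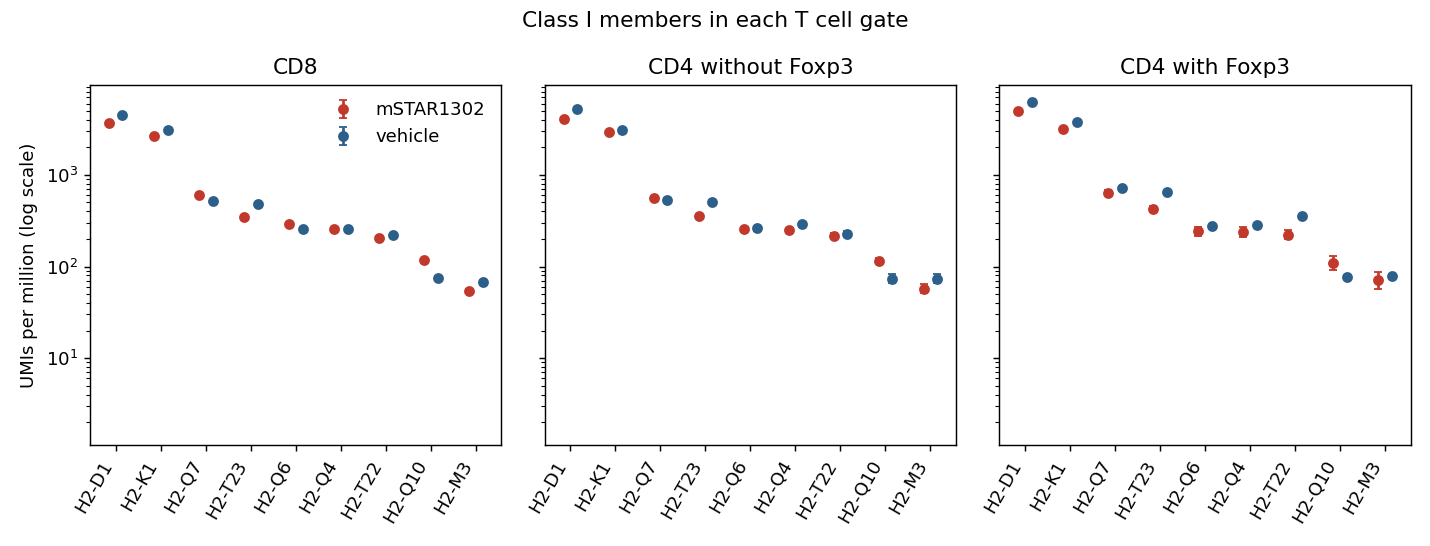
Level of the 9 class I members with at least 20 CPM, in CPM on a log axis, in the 3 T cell gates; points are the gate sums of the mSTAR1302 library (red) and the vehicle library (blue), with exact 95% counting intervals. H2-D1 and H2-K1 lie above the other members in every gate, at 2663 CPM or more, and H2-Q10 is the member with the red point above the blue in all 3 panels.

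The question of the first comparison was whether class I differed between treated and control T cells. In CD8 cells, summed class I was 8187 CPM in the mSTAR1302 library and 9499 in the vehicle library, a ratio of 0.862 (0.858 to 0.866). In Foxp3-negative CD4 cells it was 8908 and 10372 (ratio 0.859, 0.848 to 0.870), and in Foxp3-positive CD4 cells it was 10123 and 12584 (ratio 0.804, 0.790 to 0.819). The mSTAR1302 library was thus lower in each gate. On the log2 scale, with 1 CPM added, these were -0.21, -0.22 and -0.31, beside medians over all genes with at least 20 CPM of -0.14, -0.21 and -0.13 for the same gates. Class I thus lay close to the median gene in Foxp3-negative CD4 cells and further below it in the other gates. Class I in free RNA was 6557 CPM with mSTAR1302 and 8190 with vehicle, which is also lower in the mSTAR1302 library.

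Member by member, the ratios in CD8 cells ran from 0.721 to 1.57. H2-T23 was lowest at 0.721 (0.705 to 0.737), followed by H2-M3 at 0.807, H2-D1 at 0.810, H2-K1 at 0.854 and H2-T22 at 0.914, while H2-Q4 was at 0.992 (0.964 to 1.02). H2-Q6 at 1.13 (1.10 to 1.16), H2-Q7 at 1.17 (1.15 to 1.19) and H2-Q10 at 1.57 (1.49 to 1.64) were higher in the mSTAR1302 library. Relative to the median gene, H2-T23 lay at -0.33 on the log2 scale, H2-D1 at -0.16 and H2-K1 at -0.09, and H2-Q6, H2-Q7 and H2-Q10 at 0.31, 0.37 and 0.78. In CD8 cells of 6000 to 10000 UMIs the log2 ratios of H2-Q6 and H2-Q7 were -0.04 and -0.0033, so their higher level was seen in the sums over all depths and not in that range. H2-Q6 was also at -0.01 once free RNA was subtracted.

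Summed over all depths, H2-Q10 was higher with mSTAR1302 in each gate. Its levels were 119 and 75.8 CPM in CD8 cells, 115 and 73.6 in Foxp3-negative CD4 cells (ratio 1.56, 1.36 to 1.80) and 109.9 and 76.9 in Foxp3-positive CD4 cells (ratio 1.43, 1.19 to 1.71). A change of at least 1.5-fold upward was thus met by 1 of 9 class I members in CD8 cells, 1 of 9 in Foxp3-negative CD4 cells and 0 of 9 in Foxp3-positive CD4 cells, where 3.14%, 2.23% and 1.94% of all genes with at least 20 CPM met it. The H2-Q10 call ended in CD8 cells and in Foxp3-negative CD4 cells when free RNA was subtracted, when every cell was given the same weight, when cells with a marker UMI of other cell types were left out, or when cells above 15000 UMIs or outside 6000 to 10000 UMIs were left out. Its log2 ratio, 0.64 in CD8 cells, was then as low as 0.39, and as low as 0.08 in Foxp3-negative CD4 cells, and above 0 in each of these alternatives. Depth ranges did not all share that direction. In CD8 cells of 1000 to 3000 UMIs H2-Q10 was lower with mSTAR1302, at 191 CPM (170 to 215, 680 cells) and 302 CPM (236 to 380, 120 cells), and in the 3 deeper ranges it was higher, at 133 and 105, 121 and 84.9, and 111.3 and 80.3 CPM.

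Downward changes of at least 1.5-fold were met by 0 of 9 class I members in CD8 cells, 0 of 9 in Foxp3-negative CD4 cells and 2 of 9 in Foxp3-positive CD4 cells, beside 10.1%, 15.6% and 8.15% of all genes. Those 2 were H2-T23, at a ratio of 0.645 (0.590 to 0.704), and H2-T22, at 0.633 (0.559 to 0.714). H2-T22 differed little between the libraries in the other gates, with ratios of 0.914 in CD8 cells and 0.947 (0.868 to 1.03) in Foxp3-negative CD4 cells; the difference between gates was not tested. H2-Ke6, the hydroxysteroid dehydrogenase gene also named Hsd17b8, had 35.6 and 37.8 CPM in CD8 cells, a ratio of 0.941 (0.872 to 1.02).

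**Figure D2:**
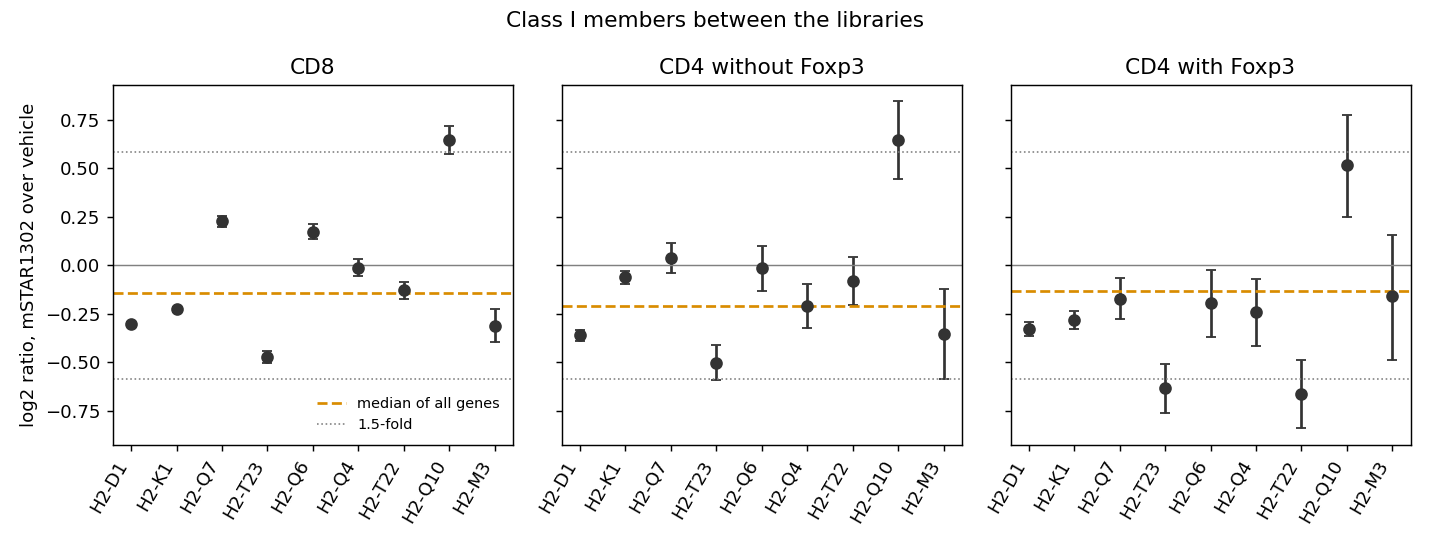
Log2 ratio of the level in the mSTAR1302 library over the vehicle library for the 9 class I members in each T cell gate, with exact 95% counting intervals; the dashed line is the median of all genes with at least 20 CPM and the dotted lines mark 1.5-fold. H2-Q10 lies above 0 in all 3 gates and H2-T23 below, and H2-D1 and H2-K1 lie near or below the dashed line except H2-K1 in Foxp3-negative CD4 cells.

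Depth differed between the libraries, with a median of 6598 UMIs per CD8 cell for mSTAR1302 and 9866 for vehicle, and class I was a smaller part of the UMIs in deeper CD8 cells. Within CD8 cells of 3000 to 6000 UMIs it was 8805 CPM with mSTAR1302 (2082 cells) and 11959 with vehicle (304 cells), within 6000 to 10000 UMIs 8510 and 10776, and within 10000 to 20000 UMIs 7740 and 9779. The mSTAR1302 level was the lower in each of the 4 depth ranges of each gate, with 1 pair of overlapping intervals. Cells with 20000 UMIs or more were in none of these ranges, and their level was not read separately. At 6000 to 10000 UMIs the log2 ratio of class I was -0.34 in CD8 cells, -0.13 in Foxp3-negative CD4 cells and -0.56 in Foxp3-positive CD4 cells, where 46 and 497 cells gave 10297 and 15162 CPM. In Foxp3-negative CD4 cells of 10000 to 20000 UMIs, 8889 CPM (8730 to 9049) and 9033 CPM (8838 to 9232) overlapped. Within each of these ranges the difference in CD8 cells was thus larger than in the sums over all cells. Those sums also hold the deeper cells, for which a difference is not shown.

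**Figure D3:**
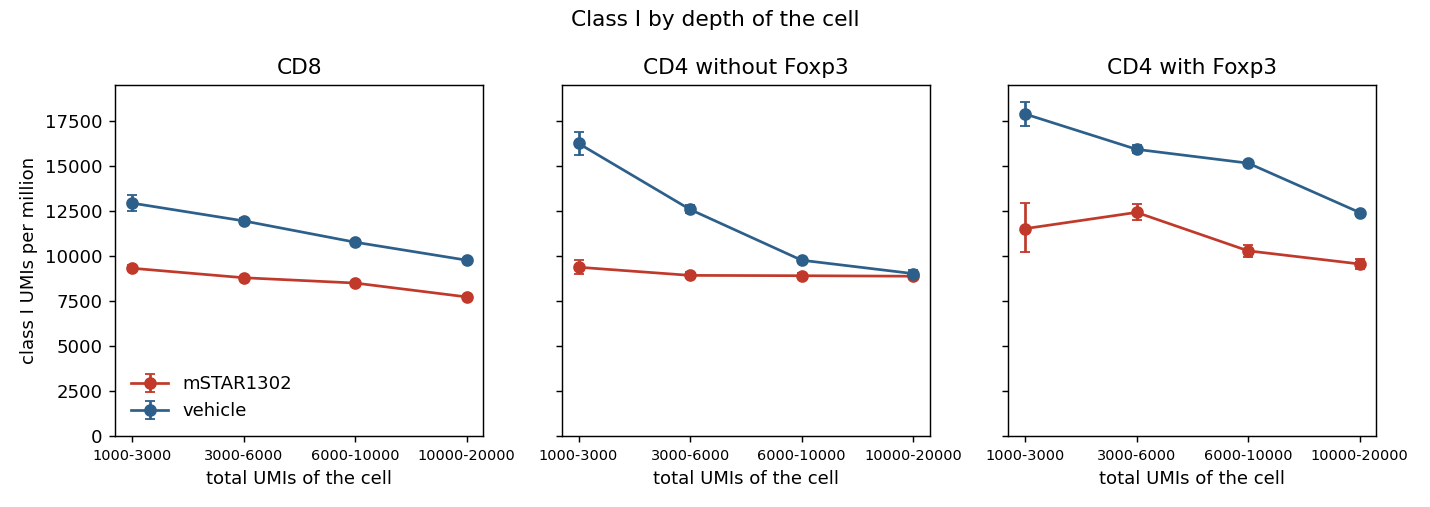
Summed class I level in CPM against the total UMIs of the cell, in 4 depth ranges and 3 T cell gates, for the mSTAR1302 library (red) and the vehicle library (blue), with exact 95% counting intervals. The red points lie below the blue in every range shown, with overlapping intervals in the deepest range of the middle gate. In CD8 cells both lines fall with depth, to 7740 and 9779 CPM. Cells with 20000 UMIs or more are not shown.

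Class I UMIs were found in nearly every cell. The class I share of a cell's UMIs had a median of 0.828% in mSTAR1302 CD8 cells and 0.988% in vehicle CD8 cells, with the middle 90% of cells at 0.432 to 1.36% and 0.521 to 1.73%. In Foxp3-positive CD4 cells the medians were 1.03% and 1.38%. Of all gated cells, 1 vehicle Foxp3-positive CD4 cell had no class I UMI. In CD8 cells the 5th, 50th and 95th percentiles were all lower with mSTAR1302, while in Foxp3-negative CD4 cells the 5th percentiles were 0.459% and 0.450% and the 95th were 1.46% and 2.27%.

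Summed over all cells, class I was highest in Foxp3-positive CD4 cells, then Foxp3-negative CD4 cells, then CD8 cells in both libraries. Foxp3-positive CD4 cells were also highest in each depth range of both, up to 20000 UMIs. In the vehicle library the order of the other gates turned in deeper cells. There class I was 10776 CPM (10699 to 10854) in CD8 cells and 9777 (9642 to 9913) in Foxp3-negative CD4 cells at 6000 to 10000 UMIs, and 9779 and 9033 at 10000 to 20000 UMIs, and the gates differed in median depth, at 9866 and 6415 UMIs. Single members did not all follow it: H2-K1 of Foxp3-negative CD4 cells over CD8 cells was at 0.991 (0.973 to 1.01) with vehicle, and H2-Q7 at 0.910 (0.875 to 0.945) with mSTAR1302. With vehicle, the ratio of Foxp3-positive CD4 cells to CD8 cells was 1.32 (1.32 to 1.33) for summed class I, 1.41 for H2-D1, 1.22 for H2-K1, 1.39 for H2-Q7, 1.36 for H2-T23 and 1.59 (1.54 to 1.65) for H2-T22, against a median of 0.15 on the log2 scale for all genes. H2-T22 was the 1 of 9 class I members at least 1.5-fold higher, where 16.6% of all genes were. With mSTAR1302 the ratio was 1.24 (1.21 to 1.26) for summed class I, 1.38 for H2-D1 and 1.10 (0.975 to 1.24) for H2-T22, and 0 of 9 members passed 1.5-fold, where 19.1% of all genes did. Foxp3-negative CD4 cells over CD8 cells gave 0 of 9 members at least 1.5-fold higher in either library, beside 4.67% of all genes with mSTAR1302 and 10.4% with vehicle. Foxp3-positive over Foxp3-negative CD4 cells gave 0 of 9 with mSTAR1302 (21.5% of all genes) and, with vehicle, 1 of 9, which was H2-T22 at 1.54 (13.9% of all genes). None of the 9 was at least 1.5-fold lower in these comparisons, where with mSTAR1302 7.25%, 5.68% and 6.82% of all genes were, and with vehicle 7.57%, 7.27% and 7.13%, in the same order. H2-Q10 was nearly level over these gates, at ratios of 1.01 (0.942 to 1.09) with vehicle and 0.926 (0.776 to 1.10) with mSTAR1302.

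Interferon-response genes, a list of 24 genes measured here that includes Isg15, Ifit1 and Gbp2, were higher in mSTAR1302 CD8 cells: 10 of the 16 with at least 20 CPM were at least 1.5-fold higher and 0 lower, with a median log2 ratio of 0.64, beside 3.14% of all genes higher and 10.1% lower. In Foxp3-negative CD4 cells the counts were 3 higher and 3 lower of 16 (2.23% and 15.6% of all genes), and in Foxp3-positive CD4 cells 1 higher and 3 lower (1.94% and 8.15%). Class I was read against these genes after each cell was thinned to 3000 UMIs, which left out 680 mSTAR1302 and 120 vehicle CD8 cells. CD8 cells with at least 5 interferon UMIs were 36.1% of the mSTAR1302 cells and 18.8% of the vehicle cells. In CD8 cells class I was higher where interferon UMIs were more: 7755, 8223 and 9177 CPM at 0 to 1, 2 to 4 and 5 or more interferon UMIs with mSTAR1302, and 9479, 10340 and 12074 CPM with vehicle. In mSTAR1302 Foxp3-positive CD4 cells that order was absent, at 10000, 11088 and 10959 CPM on 20, 49 and 65 cells. At each interferon level of each gate class I was lower in the mSTAR1302 library.

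**Figure D4:**
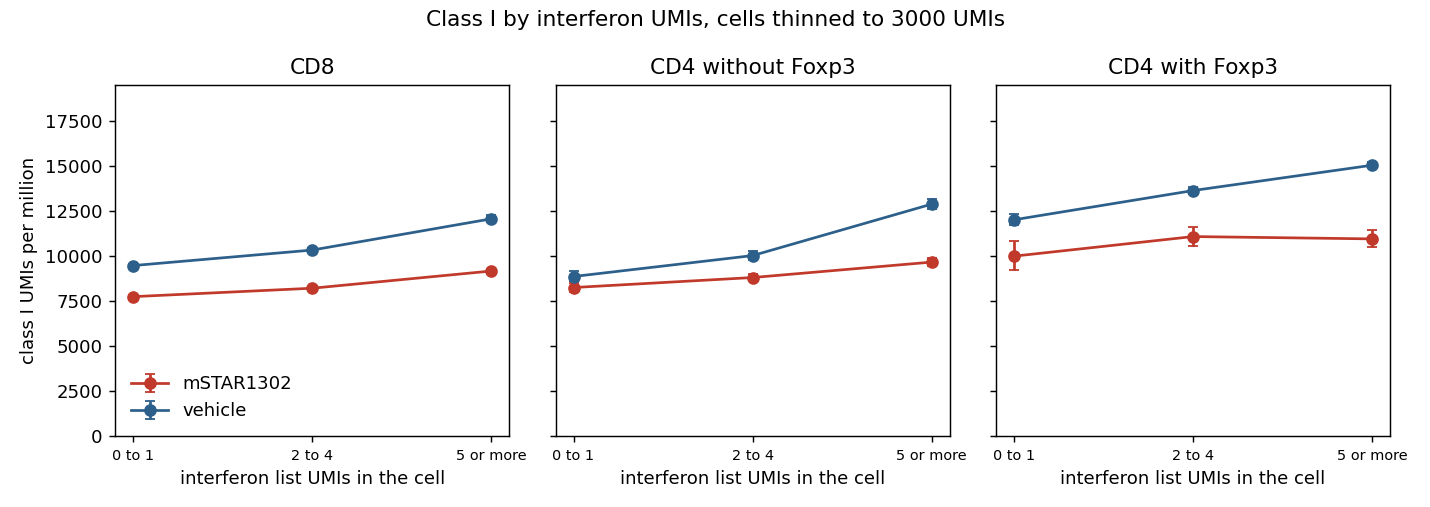
Summed class I level in CPM against the number of UMIs of the interferon list in the cell, after thinning each cell to 3000 UMIs, in 3 T cell gates for the mSTAR1302 library (red) and the vehicle library (blue), with exact 95% counting intervals. In CD8 cells red goes from 7755 to 9177 CPM and blue from 9479 to 12074, and red lies below blue at each level in each gate.

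The partners of class I were read next. All 18 genes of the class I pathway list (chaperones, peptide transporters, immunoproteasome subunits and activators) reached 20 CPM in each gate, and 0 of 18 passed 1.5-fold in either direction in any gate, with a median log2 ratio of -0.05 in CD8 cells against -0.14 for all genes. Of all genes, 3.14% were higher and 10.1% lower in CD8 cells, 2.23% and 15.6% in Foxp3-negative CD4 cells and 1.94% and 8.15% in Foxp3-positive CD4 cells. B2m, the light chain, was at 3665 and 3806 CPM in CD8 cells (ratio 0.963, 0.956 to 0.970) and at 3953 and 5012 in Foxp3-positive CD4 cells (ratio 0.789, 0.766 to 0.812). In CD8 cells the peptide transporter genes Tap1 and Tap2 were at 163 and 172 CPM and at 91.1 and 118, and the tapasin gene Tapbp at 157 and 164. Nlrc5 was at 45.0 and 40.8 CPM in CD8 cells, a ratio of 1.10 (1.03 to 1.19), and at ratios of 0.998 (0.805 to 1.24) and 0.965 (0.692 to 1.31) in the CD4 gates. In CD8 cells B2m and Nlrc5 lay closer to 1 than H2-D1 did, at 0.810. Tap2 and the chaperone gene Pdia3, at a ratio of 0.744 (0.724 to 0.764), lay further from 1 than H2-D1. In Foxp3-positive CD4 cells the B2m ratio was slightly below that of summed class I, at 0.804. The list of shared transcription factors (the RFX and NF-Y subunits and Creb1) had 4 of 7 genes at 20 CPM; Creb1 was at least 1.5-fold lower in Foxp3-negative CD4 cells and no other passed.

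Splits of the CD8 gate were read for the receptor that mSTAR1302 binds. In the mSTAR1302 library, 682 CD8 cells had a Trbv13-2 or Trbv13-3 UMI and no other Trbv UMI, and 802 had only other Trbv UMIs. H2-K1 was at 2678 and 2664 CPM and H2-D1 at 3606 and 3636 in these cells, with overlapping intervals. The Q genes were higher in the cells with the bound receptor chains: H2-Q7 at 640 CPM (621 to 660) and 537 (521 to 553), H2-Q10 at 133 (125 to 143) and 109 (102 to 116), and H2-Q6 at 295 (282 to 309) and 261 (250 to 273). This was not particular to the Q genes, as H2-T22 was also higher, at 223 CPM (212 to 235) and 190 (181 to 200). In the vehicle library, with 73 and 503 such cells, H2-Q7 was at 544 (499 to 591) and 507 (490 to 525) and H2-Q10 at 85.3 (68.2 to 105) and 78.7 (72.0 to 85.9), with overlapping intervals. H2-Q6 was at 292 (259 to 327) and 261 (248 to 273) with vehicle, also overlapping. H2-Q4 was at 255 and 220 CPM with mSTAR1302, and at 300 (267 to 335) and 266 (253 to 279) with vehicle. The vehicle values of these Q genes thus had the same direction, with wide intervals from 73 cells. Both kinds of mSTAR1302 cells thus had more H2-Q10 than the CD8 gate of the vehicle library, at 75.8 CPM. CD8 cells with at least 2 UMIs of the division genes Mki67 and Top2a had 8006 CPM of class I against 8244 in cells with none in the mSTAR1302 library, and 8605 against 10000.4 in the vehicle library, so the libraries also differed in cells without division genes.

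Class II was asked next, since mouse T cells are known to make little of it. The cells that present antigen carried it: class II was 3974 CPM in vehicle macrophages, 4165 in vehicle plasmacytoid dendritic cells and 28426 in the 7 conventional dendritic cells, and 11395 CPM in the 14 mSTAR1302 macrophages. In conventional dendritic cells H2-Aa and H2-Ab1, the chains of I-A, were at 9669 and 8910 CPM, H2-Eb1, the I-E beta chain, at 7141, and H2-DMa and H2-DMb1, the subunits of the peptide editor, at 1002 and 986. In the T cell gates class II was far lower, and was lower with mSTAR1302 than with vehicle in each. It was 75.2 and 254 CPM in CD8 cells, 61.1 and 320.4 in Foxp3-negative CD4 cells, and 65.0 and 321 in Foxp3-positive CD4 cells. These were 3.37-fold (3.24 to 3.51), 5.25-fold (4.64 to 5.94) and 4.93-fold (3.96 to 6.22) lower.

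Of the class II members with at least 20 CPM, 4 of 5 in CD8 cells, 4 of 4 in Foxp3-negative CD4 cells and 4 of 4 in Foxp3-positive CD4 cells were at least 1.5-fold lower, beside 10.1%, 15.6% and 8.15% of all genes, and 0 were higher. A member counted if either library reached 20 CPM. Only vehicle did for H2-Aa, H2-Eb1 and H2-Oa in CD8 cells, and for H2-Aa, H2-Eb1 and H2-DMa in the CD4 gates. Entry through the higher library tilts these counts towards lower, so they do not stand as separate support. In CD8 cells, H2-Aa was at 9.20 and 60.4 CPM (ratio 0.152), H2-Eb1 at 6.25 and 54.4 (ratio 0.115), H2-Ab1 at 22.7 and 75.05 (ratio 0.302), H2-Oa, a subunit of the inhibitor of H2-DM, at 13.5 and 24.3 (ratio 0.558) and H2-DMa at 21.2 and 30.7 (ratio 0.689). In Foxp3-positive CD4 cells, H2-Aa had 1.60 and 74.9 CPM, a ratio of 0.0214 (0.00259 to 0.0775) that rests on 2 UMIs in the mSTAR1302 library, and H2-Ab1 had 28.9 and 103 CPM (ratio 0.280, 0.195 to 0.390). H2-Aa and H2-Eb1 differed most and H2-DMa least among them in CD8 cells. H2-Oa was below 20 CPM in the CD4 gates, and at 11.7 and 9.03 CPM in Foxp3-negative CD4 cells its ratio of 1.29 (0.852 to 1.99) spanned 1.

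Other genes of class II presentation and markers of macrophages and plasmacytoid dendritic cells moved with class II, while markers of some other cells did not in every gate. Cd74 was at 21.9 and 135 CPM in CD8 cells, 23.4 and 250.5 in Foxp3-negative CD4 cells and 24.1 and 182 in Foxp3-positive CD4 cells. The lysosomal genes Ctss, Ctsl, Lgmn and Ifi30 were at least 1.5-fold lower with mSTAR1302 in CD8 cells and in Foxp3-negative CD4 cells, and so were Ctss, Ctsl and Ifi30 in Foxp3-positive CD4 cells. Ciita, the class II activator, was at 0.430 and 1.14 CPM in CD8 cells, 0.191 and 1.62 in Foxp3-negative CD4 cells and 0 and 2.22 in Foxp3-positive CD4 cells, where a count of 0 allows up to 2.41 CPM. The summed macrophage markers were at 69.2 and 899 CPM in CD8 cells, at 80.6 and 1315 in Foxp3-negative CD4 cells and at 10.4 and 336 in Foxp3-positive CD4 cells. Each macrophage marker with at least 20 CPM was at least 1.5-fold lower (5 of 5, 7 of 7 and 5 of 5), beside 10.1%, 15.6% and 8.15% of all genes. Apart from Lyz2 in CD8 and Foxp3-negative CD4 cells, these markers reached 20 CPM only with vehicle. Entry through that library tilts the counts towards lower, so they do not stand as separate support. Of the 10 macrophage markers, 7 were at 0 in mSTAR1302 Foxp3-positive CD4 cells and 0 in the vehicle cells. These gates held 1246325 and 14426733 UMIs, so a count of 0 allows up to 2.41 and 0.208 CPM. Weak markers can thus fall to 0 in the smaller gate from its size alone. Summed markers of plasmacytoid dendritic cells were 16.3 and 99.2 CPM in CD8 cells, and B cell markers were 4.16 and 3.39. EMT6 tumour markers were at 36.7 and 126 CPM in CD8 cells, and fibroblast markers at 26.5 and 102. In Foxp3-positive CD4 cells these 2 lists were nearly level, at 44.1 and 42.9 CPM and at 12.8 and 12.8. The part of these cells in the class II difference was not tested.

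Free RNA held class II as well, at 159 CPM with mSTAR1302 and 331 with vehicle. The level in the T cell gates was at or below that: 47.4%, 38.5% and 41.0% of free RNA in the 3 gates with mSTAR1302, and 76.7%, 96.8% and 96.9% with vehicle. In the vehicle gates and in mSTAR1302 CD8 cells most of the UMIs were held by few cells. In vehicle CD8 cells the 25 cells with the most H2-Aa, H2-Ab1 and H2-Eb1 UMIs, the top 1% of the gate, had 78.6% of them, and in the other vehicle gates the top 1% had 73.4% and 71.6%. With mSTAR1302 the top 1% had 59.8% in CD8 cells, 25.3% in Foxp3-negative and 11.9% in Foxp3-positive CD4 cells, where 36 of 146 cells had such a UMI and none more than 3. Cells with at least 10 such UMIs numbered 19, 11 and 15 in the vehicle gates and 9, 1 and 0 in the mSTAR1302 gates. Of the 19 vehicle CD8 cells, 12 had a C1q or Lyz2 UMI, 7 had a Siglech UMI and all 19 had a Cd74 UMI, and their median was 17684 UMIs against 9847 in the other cells, of which 39.9% had a C1q or Lyz2 UMI.

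Without the cells of at least 10 class II UMIs, class II was 53.4 and 94.4 CPM in CD8 cells, 56.1 and 92.8 in Foxp3-negative CD4 cells and 65.0 and 117 in Foxp3-positive CD4 cells, and the log2 ratios went from -1.74, -2.37 and -2.28 to -0.81, -0.72 and -0.84. Restricting to cells of 6000 to 10000 UMIs gave -0.78, -1.27 and -0.95. The direction stayed, and the size was smaller in all 3 gates.

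The ratio of H2-Ab1 to H2-Aa depended on which cells were counted. In free RNA H2-Ab1 and H2-Aa were nearly equal, with 1.01 H2-Ab1 UMIs per H2-Aa UMI with mSTAR1302 and 1.00 with vehicle. This ratio was 0.763 to 0.921 in macrophages and dendritic cells. Over all gated cells it was 2.46 and 1.24 in CD8 cells, 5.24 and 0.947 in Foxp3-negative CD4 cells and 18 and 1.38 in Foxp3-positive CD4 cells, so the vehicle gates lay near free RNA. Without cells that had a marker UMI of another cell type it was 7.54 and 1.55 in CD8 cells, 12 and 2.45 in Foxp3-negative CD4 cells and 30 and 10.7 in Foxp3-positive CD4 cells, the 30 resting on 1 H2-Aa UMI. In T cells with fewer than 10 class II UMIs, H2-Ab1 exceeded H2-Aa in every gate: 7.46 and 4.95 UMIs per H2-Aa UMI in CD8 cells, 8.33 and 3.64 in Foxp3-negative CD4 cells, and 18 and 10.8 in Foxp3-positive CD4 cells, the 18 resting on 2 H2-Aa UMIs. That limit is set on the UMIs of these same genes. In those cells H2-Aa was at 4.88% and 5.97% of its free RNA level in the CD8 gate, and H2-Ab1 at 36.0% and 29.5%. Over all CD8 cells H2-Aa was at 22.3% and 62.6% and H2-Ab1 at 54.3% and 77.7%, and in CD8 cells without a marker UMI H2-Aa was at 4.93% and 35.4% and H2-Ab1 at 36.7% and 54.9%. In the cells under the limit H2-DMa was at 79.9% and 66.4%, and H2-Oa at 117% and 151%. In macrophages H2-Oa was at 8.40 and 0.964 CPM, on 2 UMIs and 1 UMI, below the 13.5 and 24.3 CPM of the CD8 gates. Dendritic cells lay above the CD8 gates. Plasmacytoid dendritic cells had 5 H2-Oa UMIs in 117500 UMIs with mSTAR1302 and 91 in 1853950 with vehicle. Conventional dendritic cells, present only with vehicle, had 17 in 123795.

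The share of cells with a UMI was read over all gated cells, after thinning to 3000 UMIs. In CD8 cells an H2-Ab1 UMI was found in 4.31% (3.80 to 4.88%) and 9.32% (8.17 to 10.6%), and an H2-Aa UMI in 0.802% and 2.78%; without thinning the shares were 9.32% and 24.3% for H2-Ab1 and 1.57% and 6.79% for H2-Aa. In Foxp3-positive CD4 cells the thinned shares were 11.9% (6.98 to 18.7%) and 15.4% (13.5 to 17.5%) for H2-Ab1, and 1.49% and 2.09% for H2-Aa. In near-empty droplets, with medians of 231 and 217 UMIs, H2-Ab1 and H2-Aa were found in nearly the same shares, 0.944% and 0.947% with mSTAR1302 and 2.01% and 2.03% with vehicle. H2-Ab1 was thus found in more of these T cells than H2-Aa in both libraries. Which cells made these transcripts was not tested, and the deposited counts of BALB/c cells were made on the C57BL/6 reference, whose H2 alleles differ.

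**Figure D5:**
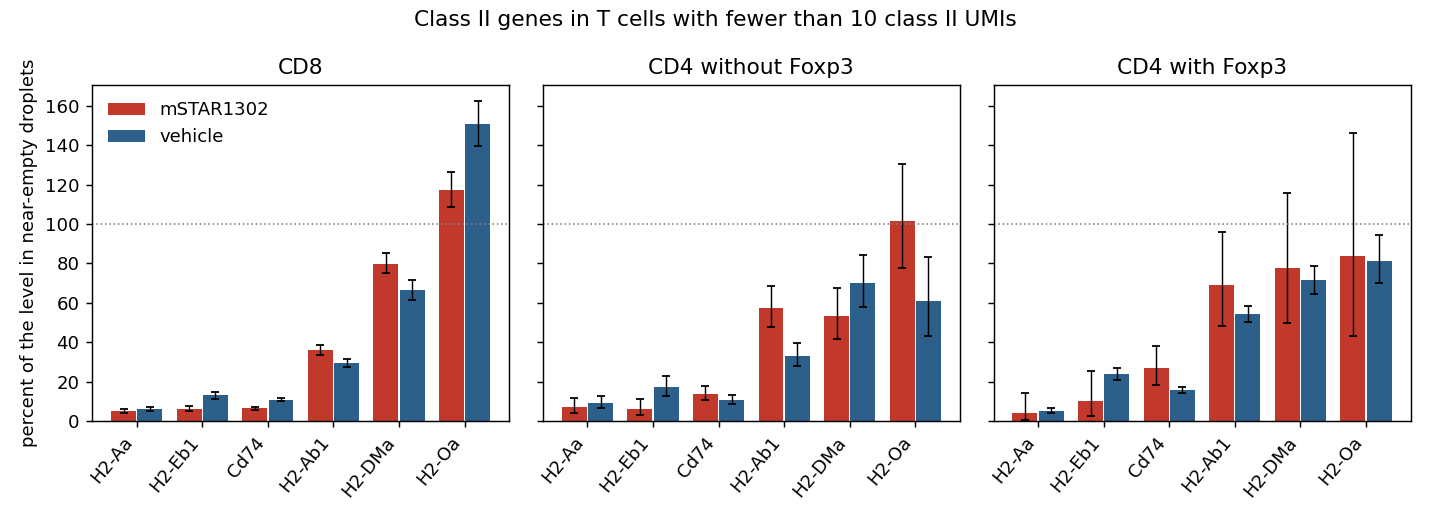
Level of 5 class II members and Cd74 in T cells with fewer than 10 UMIs of H2-Aa, H2-Ab1 and H2-Eb1, as a percent of the level in near-empty droplets of the same library, in 3 T cell gates for mSTAR1302 (red) and vehicle (blue); bars carry exact 95% counting intervals of the gate level and the dotted line is 100%. In CD8 cells H2-Aa is at 4.88% and 5.97%, H2-Ab1 at 36.0% and 29.5% and H2-Oa at 117% and 151%.

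Class I genes resemble each other, so reads can be shared among them. In GENCODE M21, none of the 91-base windows in the last 500 bases of the longest transcript of H2-K1, H2-D1, H2-Q4, H2-Q6, H2-Q7, H2-Q10, H2-T23 or H2-M3 was identical to a stretch of another class I gene, while 25.9% of those of H2-T22 also occurred in H2-T10, which is not among the genes analysed here. BALB/c mice and EMT6 cells carry other H2 alleles than the reference, so how BALB/c reads were divided among H2-D1, H2-K1 and the Q genes was not tested. Both libraries share the strain, and levels compared between genes are less certain than levels of 1 gene compared between libraries.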

How the data were processed

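The members and all gene lists were chosen with earlier results of these data known. The authors deposited an unfiltered matrix of UMI counts for each library. It was made with Cell Ranger, version 4 per the file headers and 6.0.1 per the submitters' processing notes, which also name mm10, FastQC, MultiQC 1.9 and Seurat but no annotation release.

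Barcodes needed at least 1000 UMIs, 500 genes and at most 10% mitochondrial UMIs; the last limit removed 17.0% and 18.3%. Gates were set from marker UMIs, and doublets were neither called nor removed. UMIs of a gate's cells were added up and turned into CPM. Log2 ratios had 1 CPM added, and a gene was compared where a library reached 20 CPM. Members at that level in a T cell gate are named. Intervals are Poisson for levels, conditional binomial for ratios (both exact) and Clopper-Pearson for shares; a count of 0 was read as up to 3. The code was tested on simulated data, and thinning used seed 7. Of the alternatives, 14 were planned. Cells of 6000 to 10000 UMIs, leaving out cells with at least 10 UMIs of H2-Aa, H2-Ab1 and H2-Eb1, and the promoter letters were chosen after seeing the data. Tools were matplotlib 3.10.9, pandas 2.3.3, SciPy 1.17.1, NumPy 2.4.6 and Python 3.11.15.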

Additional observations from a re-analysis of the deposited data

Results flagged for a closer look

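H2-Q6 and H2-Q7 had opposite directions in different T cell gates. The ratio of mSTAR1302 over vehicle for H2-Q6 was 1.13 in CD8 cells, 0.99 in Foxp3-negative CD4 cells and 0.874 in Foxp3-positive CD4 cells. For H2-Q7 it was 1.17, 1.03 and 0.888. The counting intervals lay above 1 in CD8 cells and below 1 in Foxp3-positive CD4 cells for both genes, and with 1 library in each group the difference between the gates was not tested. In CD8 cells of 6000 to 10000 UMIs the log2 ratios of H2-Q6 and H2-Q7 were -0.04 and -0.0033, so the direction in CD8 cells did not hold in that depth range.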

How the results depend on the processing

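Of 14 planned and 2 added alternatives, 0 turned the direction of a summed class or of a member past 1.5-fold. No paired analysis was possible because each group has 1 library and no test was made. Values below are log2 ratios of mSTAR1302 over vehicle, in the order CD8, Foxp3-negative CD4 and Foxp3-positive CD4 cells unless a gate is named. The cause was not tested. Median-ratio scaling, which moved the median gene to about 0, gave class I -0.0705, -0.0062 and -0.18, class II -1.60 (CD8) and -2.16 (Foxp3-negative), and 1 class I member at least 1.5-fold higher in Foxp3-positive cells, against 0; so did no CPM minimum, with 1. Equal weight for every cell gave class I -0.29, -0.35 and -0.38, class II -1.35, -1.74 and -1.44, and 0, 0 and 1 class I members higher. Leaving out cells with a marker UMI gave class I -0.28 (CD8) and -0.36 (Foxp3-positive), class II -1.67, -1.11 and -1.10, and 0 members higher in CD8 and 0 in Foxp3-negative cells. A limit of 15000 UMIs gave class I -0.32, -0.25 and -0.44, class II -0.83, -1.28 and -1.04, and 0 and 0 members higher in these 2 gates. Subtracting free RNA gave class I -0.25, -0.46 and -0.40, class II -2.59 (Foxp3-negative), and again 0 and 0. Cells of 6000 to 10000 UMIs gave class I -0.34, -0.13 and -0.56, class II -0.78, -1.27 and -0.95, and 0 and 0. Without cells of at least 10 class II UMIs, class II was -0.81, -0.72 and -0.84. A mitochondrial limit of 5% gave class I -0.28 (Foxp3-positive) and class II -1.94 (CD8) and -1.57 (Foxp3-negative). At least 4 Cd3 UMIs gave class II -1.59 and -1.47 in the same gates. At least 3000 UMIs gave class I -0.19 (Foxp3-negative), leaving out CD8 cells with a Foxp3 UMI gave -0.19 (CD8), and a pseudocount of 5 CPM gave class II -1.69 (CD8). Members with small ratios did cross 0 under some alternatives: H2-Q4, H2-Q6, H2-Q7 and H2-T22 in CD8 and Foxp3-negative cells, H2-Ke6 in all gates, and H2-K1 in Foxp3-negative cells, at 0.15 under median-ratio scaling. Mouse-to-mouse spread cannot be read from these libraries.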

Other observations

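T cells outside the gates held class II as well. T cells with both Cd4 and Cd8 UMIs, 843 in the mSTAR1302 library and 1302 in the vehicle library, had 94.98 and 583 CPM of class II and 3.20 and 152 CPM of the C1q genes. T cells with neither, 648 and 980, had 488 and 689 CPM of class II and 298 and 825 CPM of the C1q genes. Class I in the cells with both was 8701 and 10592 CPM and in the cells with neither 8832 and 10380 CPM, lower with mSTAR1302 in each.

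CD8 cells that also had a Foxp3 UMI, 193 with mSTAR1302 and 402 with vehicle, had 9222 and 10282 CPM of class I, against 8145 and 9313 in the CD8 cells without one. H2-D1 was at 4350 and 5035 CPM in the cells with a Foxp3 UMI and at 3607 and 4362 in those without. Class II in the cells with a Foxp3 UMI was 213 and 327 CPM, against 69.6 and 236.

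H2-T23 in vehicle CD8 cells was at 611 CPM (564 to 661) in the 73 cells with a Trbv13-2 or Trbv13-3 UMI and at 484 CPM (467 to 501) in the 503 cells with other Trbv UMIs. In mSTAR1302 CD8 cells it was at 351 and 354 CPM. The 7 vehicle cells in the NK gate had 2165 CPM of class II, with 91 H2-Aa, 72 H2-Eb1 and 38 H2-Ab1 UMIs.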
